A study of Homo sapiens with 6 samples.

Results

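The replication-independent histone variants are the histones that a cell makes and places in chromatin throughout its life, in contrast to the replicative histones, which are made in bulk during S phase. The variants described here are 9 genes, set against 12406 genes that the arrays could test, in A549 cells, an established human lung adenocarcinoma line: H2AZ1, H2AZ2, H3-3A, H3-3B, H2AX, H2AJ, MACROH2A1, MACROH2A2 and H1-10. They were chosen by symbol, with earlier results of these data known. A probe set is the set of short oligonucleotides on the array that reports on a transcript. Every probe set to which the array annotation gives 1 symbol, and that symbol a member, was taken. Measured values were not used to pick among these probe sets. This gave 24 probe sets for 8 of the 9 genes, while H3-3B had none of its own. Of the 24, 21 passed the filter on dim probe sets, and 3 lay under it. Total RNA came from 3 samples of NME2-depleted cells, in which NME2 had been silenced transiently with a small interfering RNA (siRNA), and from 3 samples of control cells, which received control siRNA. Both groups are the same line and differ, as far as the labels say, only in the siRNA. Neither the time after transfection nor the siRNA sequence is stated in the sources, and the 3 arrays of a group are called biological replicates with no word on separate cultures. The p-values therefore measure the spread between these samples. The comparison asks which transcripts change when NME2, a nucleoside diphosphate kinase that also binds DNA, is silenced.

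Replicative histone genes lie in clusters, and most of their mRNAs end in a stem-loop without a poly(A) tail. The variants lie alone, most have introns, and their mRNAs carry a poly(A) tail. H2AX is known for giving rise to both kinds of mRNA. Histone chaperones exchange the variants into nucleosomes outside replication, so the makeup of chromatin can change in cells that are not dividing. H2A.Z sits beside transcription start sites, H3.3 marks active genes and also heterochromatin, H2AX is phosphorylated around DNA breaks, and macroH2A, which carries a large macro domain, is best known from the inactive X chromosome.

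The 4 promoters below show what the variant genes share in sequence and where they part. They are RefSeq promoters of assembly GRCh38.p14, each the 250 bases before the annotated start site, written 5′ to 3′ along the gene's strand. Capitals mark CCAAT or its complement ATTGG (the CCAAT box, bound by the trimeric factor NF-Y) and TATAAA or its complement TTTATA (a form of the TATA box). Both strands were searched, and the motifs do not overlap each other. H2AZ1 and H2AZ2 encode near-identical H2A.Z proteins, and H2AX carries both motifs. MACROH2A2 had the lowest p of the variant genes measured in the expression data.
H2AZ1, chr4:99950276-99950525, minus strand: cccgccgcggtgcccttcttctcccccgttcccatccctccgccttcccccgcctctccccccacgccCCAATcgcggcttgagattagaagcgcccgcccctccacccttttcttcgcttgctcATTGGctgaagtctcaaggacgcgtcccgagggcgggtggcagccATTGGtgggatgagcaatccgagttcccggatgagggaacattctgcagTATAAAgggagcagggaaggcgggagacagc
H2AZ2, chr7:44848088-44848337, minus strand: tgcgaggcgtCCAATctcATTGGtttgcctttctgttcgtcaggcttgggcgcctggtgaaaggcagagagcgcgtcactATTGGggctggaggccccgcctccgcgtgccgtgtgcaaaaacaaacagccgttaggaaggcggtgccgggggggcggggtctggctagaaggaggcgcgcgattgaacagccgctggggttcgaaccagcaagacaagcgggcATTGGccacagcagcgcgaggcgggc
H2AX, chr11:119095466-119095715, minus strand: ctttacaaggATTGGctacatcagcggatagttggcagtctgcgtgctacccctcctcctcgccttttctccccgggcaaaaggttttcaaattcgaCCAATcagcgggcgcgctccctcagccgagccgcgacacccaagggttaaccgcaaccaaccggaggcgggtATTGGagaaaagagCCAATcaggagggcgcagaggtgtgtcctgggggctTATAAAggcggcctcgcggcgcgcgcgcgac
MACROH2A2, chr10:70052596-70052845, plus strand: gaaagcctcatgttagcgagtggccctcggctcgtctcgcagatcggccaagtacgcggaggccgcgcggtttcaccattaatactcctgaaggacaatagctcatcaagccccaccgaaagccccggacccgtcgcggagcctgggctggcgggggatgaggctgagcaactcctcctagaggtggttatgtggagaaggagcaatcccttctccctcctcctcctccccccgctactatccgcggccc

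The 9 genes had 13 annotated start sites, of which H3-3A had 4 and MACROH2A1 had 2. A CCAAT box was found before 9 of the 13 start sites, while 32% of the 35116 RefSeq promoters of this length held one. By gene, 7 of the 9 had one before at least 1 start site. At least 3 stood before 5 of the 13 start sites, against 2.93% of all promoters. These were the start sites of H2AZ1, H2AZ2, H3-3B, H2AX and H2AJ. H2AZ2, H3-3B and H2AX, 3 of the 13, had 4, which 0.874% of all promoters reach. The H2AZ1 boxes began at -182, -125 and -80 from the start site, and those of H2AX at -240, -153, -81 and -67. Only H2AZ2, of these 5, had a box as near the start as -26. TATAAA stood before H2AZ1, H2AX and H1-10 at -31 and before H3-3B at -29. These are 4 of the 13 start sites, where 10.7% of all promoters held it. Both motifs together were found for H2AZ1, H3-3B and H2AX, 3 of the 13 start sites, against 3.81% of all promoters. MACROH2A2 had neither motif, H1-10 had no CCAAT box, and MACROH2A1 had CCAAT boxes before 1 of its start sites only. These matches are a description of letters. No match says only that these letters are not in this window.

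**Figure D1:**
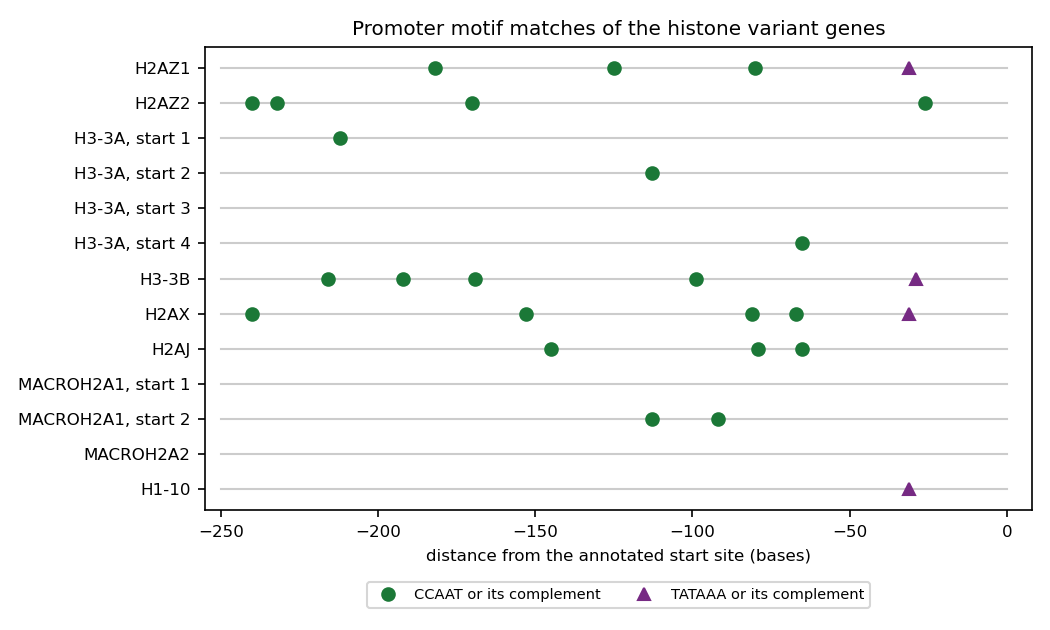
Each line is the 250 bases before 1 annotated start site of a variant gene, with the distance from that start site in bases on the horizontal axis. Circles are matches to the CCAAT box and triangles matches to TATAAA on either strand. H2AZ1, H2AZ2, H3-3B, H2AX and H2AJ carry 3 or 4 circles each, and MACROH2A2 has no match.

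Signals are the deposited array values on a linear scale. Since oligonucleotides differ in how they bind, levels of different probe sets are not compared as amounts of transcript. They are used together in the filter on dim probe sets, in the marker sums and to find a gene's brightest probe set. Array medians lay between 75.7 and 85.2. The silenced gene was read by a probe set annotated to NME2 and to the NME1-NME2 read-through transcript, with signals of 1920.4, 3675.9 and 3215.7 in NME2-depleted cells and 17861.6, 19388.9 and 21044.5 in control cells. Its mean log2 difference, NME2-depleted minus control, was -2.78 (SE 0.19, limma adjusted p = 0.00032), so each array matched its label. Over all 27307 probe sets tested, 0.396% passed an adjusted p of 0.05 (76, or 0.278%, lower and 32, or 0.117%, higher). Marker sums run over every marker with a probe set, dim ones included, and the brightest weigh most, such as KRT18 among the epithelial ones. The 6 epithelial markers of A549 summed to between 47800 and 52748 in NME2-depleted arrays and between 50211 and 56499 in control arrays, and 5 of them passed the filter. Among them EPCAM and CDH1 had log2 differences of 0.71 and 0.21, higher without overlap, and KRT8 had -0.24, lower without overlap (limma adjusted p = 0.0884, 0.324 and 0.209). The 4 leukocyte markers summed to 315 to 443 in NME2-depleted and 371 to 461 in control arrays, with 2 past the filter and PTPRC and LYZ under it. Fibroblast markers, 6 with 3 past the filter, summed to 787 to 965 in NME2-depleted and 603 to 799 in control arrays. Endothelial markers, 6 with PECAM1 alone past the filter, summed to 299 to 403 in NME2-depleted and 266 to 332 in control arrays. The ratio of 3' to 5' signal of ACTB, a sign of RNA quality, was 1.326, 1.343 and 1.396 in NME2-depleted arrays and 1.198, 1.305 and 1.234 in control arrays (exact two-sided permutation p = 0.1, the smallest that 3 against 3 arrays allow). The same ratio of GAPDH was 1.008, 0.985 and 1.064 in NME2-depleted arrays and 0.993, 0.970 and 1.021 in control arrays, with overlap (exact permutation p = 0.5). The part of the markers and of the ACTB ratio in the results that follow was not tested.

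None of the 21 tested variant probe sets passed the adjusted threshold, so 0 of the 8 measured genes was called, while 0.396% of all probe sets and 0.54% of all genes were. Unadjusted p-values under 0.05 were found for 2 of the 21, both lower and in MACROH2A1 and MACROH2A2, against 12.9% of all tested probe sets (6.42% lower). The count was 0 of 21 when limma was fitted with no intensity trend, where 3130 of all 27307 had such a p. It was 7 of 21 with the replicate number as a block, where 16.7% of all did. Means were lower in NME2-depleted cells for 9 of the 21 and higher for 12, where 47.5% of all probe sets had a lower mean. Groups that did not overlap were found for 3 of the 21, all lower, and for 0 higher, against 8.91% lower and 9.66% higher over all tested probe sets. By gene, taking the brightest tested probe set of each, 4 had a lower and 4 a higher mean, where 49.8% of all genes had a lower one. MACROH2A1 and MACROH2A2, 2 of the 8, were lower without overlap and 0 was higher, against 10.1% and 10.4% of all genes. The median log2 difference of the 8 genes was -0.05, beside 0.00 for all genes. In 19 of the 21 probe sets the 95% interval of the difference included 0. By the brightest tested probe set, it lay wholly within a 1.5-fold change in either direction for 6 of the 8 genes. H3-3A and MACROH2A2 were the exceptions. Dimmer probe sets of H2AX, H2AJ and MACROH2A1 had intervals that reached past a 1.5-fold change. Examples are H2AX 213344_s_at (95% interval -0.78 to 0.63) and H2AJ 228213_at (-1.04 to 0.58), so such a change is not excluded by them. In bulk RNA, fewer cells that express a transcript and less of it per cell cannot be told apart.

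**Figure D2:**
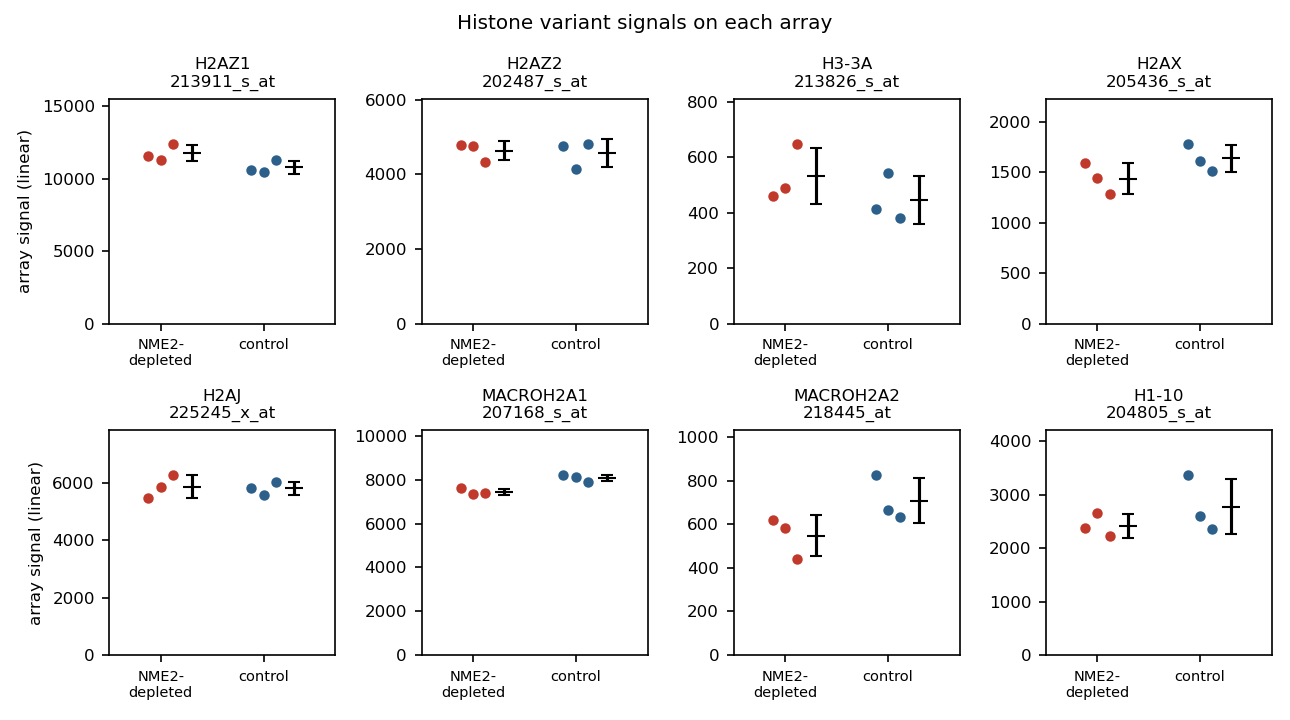
Array signal (linear, vertical axis from 0) of the brightest tested probe set of each of 8 histone variant genes, in 3 NME2-depleted arrays (red, left) and 3 control arrays (blue, right), with the mean and SD beside each group. The groups are apart for MACROH2A1 and MACROH2A2 and overlap for the other 6 genes.

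The H2A.Z genes had narrow intervals. H2AZ1, which encodes the H2A.Z.1 form, gave signals of 11582.5, 11324.8 and 12416.2 in NME2-depleted cells and 10591.7, 10447.3 and 11329 in control cells by probe set 213911_s_at. The depleted arrays were the higher, apart from an overlap of the lowest of them with the highest control array, at 11324.8 and 11329. These 2 arrays have different replicate numbers, and between same-numbered arrays the log2 difference was 0.13, 0.12 and 0.13. The mean log2 difference was 0.13 (SE 0.07, 95% interval -0.02 to 0.27, limma adjusted p = 0.460), or 1.09-fold, and the interval ends at 1.21-fold. The other H2AZ1 probe set, 200853_at, read 10678, 9829.6 and 11451.6 in NME2-depleted cells and 9626, 9666.2 and 10050.3 in control cells. Its difference was 0.12 (limma adjusted p = 0.521), and its groups overlapped too.

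H2AZ2, which encodes H2A.Z.2, a protein that differs from H2A.Z.1 at a few residues, had group means close together in all 4 of its probe sets. The brightest, 202487_s_at, read 4793.3, 4769 and 4341.8 in NME2-depleted cells and 4757.9, 4149.5 and 4815.9 in control cells. Each group had 1 array lower than its other members, and the groups overlapped. The log2 difference was 0.02 (SE 0.08, 95% interval -0.16 to 0.20, limma adjusted p = 0.942). The other 3 probe sets had differences of 0.00, 0.05 and 0.04, and in the brightest of them, 212205_at, the means were 2117 ± 112 in NME2-depleted cells and 2112 ± 128 in control cells (SD, n = 3 each). The H2AZ1 and H2AZ2 genes were then compared within arrays. The log2 difference of H2AZ1 lay 0.11 above that of H2AZ2 (SE 0.10, exact two-sided permutation p = 0.4, and 0.4 after adjustment over the 2 paralog pairs compared). With a smallest possible p of 0.1, this test could not pass 0.05 and does not show that the genes moved alike.

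H3.3 is made as the same protein from H3-3A and H3-3B, which are distinguished by their untranslated sequence and codons. H3-3A alone was read by 213826_s_at, with 460.5, 487.7 and 648.5 in NME2-depleted cells and 414.7, 543.8 and 380.2 in control cells. The highest value was in depleted array 3 and the lowest in control array 3, and the groups overlapped. The log2 difference of 0.25 had a wide interval (SE 0.17, 95% interval -0.12 to 0.63, limma adjusted p = 0.579), reaching 1.55-fold. It was 0.10 without NME2-depleted replicate 3, 0.15 without control replicate 3 and 0.41 without control replicate 2. A further 8 probe sets are annotated to H3-3A and H3-3B together, with a processed copy or a microRNA in the same entry, and cannot be assigned to either gene. All 8 were tested and 0 was called. Their log2 differences lay between -0.09 and 0.01, with a smallest limma adjusted p of 0.574. Groups were lower without overlap in 2 of the 8, 211997_x_at and 209069_s_at, against 8.91% of all tested probe sets. The 8 are annotated to the same genes, so they are not 8 separate measurements. In 211997_x_at signals were 14879.4, 14854 and 15174.3 in NME2-depleted cells and 15984.3, 16136.4 and 15653.3 in control cells, which is 0.940-fold (limma adjusted p = 0.574). In 213828_x_at the means were 18381 ± 1737 in NME2-depleted cells and 18379 ± 1821 in control cells (SD, n = 3 each). The planned comparison of H3-3A with H3-3B was not possible, because no probe set was annotated to H3-3B alone.

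H2AX, the variant whose phosphorylated form gathers repair factors at DNA breaks, had signals of 1588.2, 1443 and 1283.7 in NME2-depleted cells and 1782.3, 1614 and 1514.1 in control cells by 205436_s_at. Depleted arrays 2 and 3 lay below every control array, and depleted array 1 lay above control array 3. Between same-numbered arrays the log2 difference was -0.17, -0.16 and -0.24. The log2 difference was -0.19 (SE 0.10, 95% interval -0.41 to 0.03, limma adjusted p = 0.460, exact permutation p = 0.2). A dimmer H2AX probe set, 212525_s_at, read 197.9, 223.6 and 147.8 in NME2-depleted cells and 180.1, 164.7 and 220.9 in control cells, with a difference of 0.00 (SE 0.21). The next, 213344_s_at, read 166.8, 72.2 and 166.3 in NME2-depleted cells and 129.9, 124.2 and 144.4 in control cells, a difference of -0.07 with an SE of 0.32, so that 1 depleted array was both the lowest and far from the others of its group. The remaining H2AX probe set, 212524_x_at, was under the filter, at 5.1, 6.2 and 9 in NME2-depleted cells and 6.7, 38 and 33.6 in control cells.

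H2AJ encodes H2A.J, a variant known for building up in senescent cells. Its brightest probe set, 225245_x_at, gave 5461.7, 5849.6 and 6262.8 in NME2-depleted cells and 5820.9, 5566.2 and 6034.4 in control cells. Highest and lowest values were both in the depleted group, and the difference was 0.01 (SE 0.07, 95% interval -0.15 to 0.17, limma adjusted p = 0.968). A second bright probe set, 224301_x_at, read 4467.7, 5442.9 and 5285.7 in NME2-depleted cells and 4724.2, 5805.1 and 6103.4 in control cells, with a difference of -0.13 and overlapping groups. Near the filter, 220936_s_at and 228213_at had differences of 0.36 and -0.23 with an SE of 0.37 each, and neither direction is distinguishable from 0 at that spread. Of the H2AJ probe sets, only 228213_at is not of a type shared between transcripts (_s_at or _x_at). The bright values may therefore include other transcripts.

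MacroH2A transcripts gave the 3 probe sets, of the 21 tested, whose groups did not overlap. MACROH2A2, which encodes macroH2A2, had signals of 620.2, 582.2 and 442.6 in NME2-depleted cells and 825.4, 667.9 and 633.6 in control cells by its only probe set, 218445_at. The highest depleted array lay under the lowest control array, by 620.2 to 633.6. Means were 548 ± 93.5 in NME2-depleted cells and 709 ± 102 in control cells (SD, n = 3 each), and the log2 difference was -0.38 (SE 0.15, 95% interval -0.71 to -0.04). This is 0.771-fold with an interval of 0.612 to 0.970. The gene had the lowest p of the 21 probe sets, and still missed the threshold (limma unadjusted p = 0.0301, adjusted p = 0.327, exact permutation p = 0.1).

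MACROH2A1, which encodes macroH2A1 in splice forms that differ in the macro domain, was read by 7 probe sets with unlike directions. By 207168_s_at the signals were 7618.3, 7359 and 7374.9 in NME2-depleted cells and 8200.1, 8107 and 7912 in control cells. All 3 depleted arrays lay below all 3 control arrays, with a log2 difference of -0.12 (SE 0.06, 95% interval -0.25 to 0.02, limma adjusted p = 0.456). By 214501_s_at they were 2491.3, 2634.7 and 2418.4 in NME2-depleted cells and 2816.7, 2908.5 and 2749.6 in control cells, again without overlap. The difference there was -0.17 (SE 0.07, 95% interval -0.33 to -0.01, limma adjusted p = 0.360). The probe sets 214500_at, 226840_at and 229593_at had higher means in NME2-depleted cells, with differences of 0.07, 0.11 and 0.21 and overlapping groups. In 214500_at, for example, signals were 726.8, 702.8 and 697.8 in NME2-depleted cells and 637.4, 746.9 and 645.9 in control cells. None of the 5 tested passed the threshold, and the files do not say which splice form each one reads. Probe sets 1558779_at and 1558780_a_at were under the filter, at 9.8, 6.2 and 2.6 in NME2-depleted cells and 2.6, 0.9 and 1.5 in control cells for the first, and at 5.8, 3 and 38.1 in NME2-depleted cells and 31.8, 21 and 15.7 in control cells for the other.

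Compared within arrays, the log2 difference of MACROH2A1 lay 0.26 above that of MACROH2A2 (SE 0.17, exact two-sided permutation p = 0.2, and 0.4 after adjustment over the 2 pairs). The within-array difference had an SD of 0.24 in NME2-depleted and 0.18 in control arrays, and the same limit on p holds.

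H1-10 encodes H1.10, a linker histone that binds where DNA enters and leaves the nucleosome. Its probe set 204805_s_at read 2380.6, 2657.7 and 2221.2 in NME2-depleted cells and 3362.5, 2605.8 and 2364.6 in control cells. Control array 1 stood above the other 5, which overlapped. The log2 difference was -0.19 (SE 0.12, 95% interval -0.46 to 0.08, limma adjusted p = 0.568). It was -0.04 without control replicate 1 and -0.29 without control replicate 3.

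**Figure D3:**
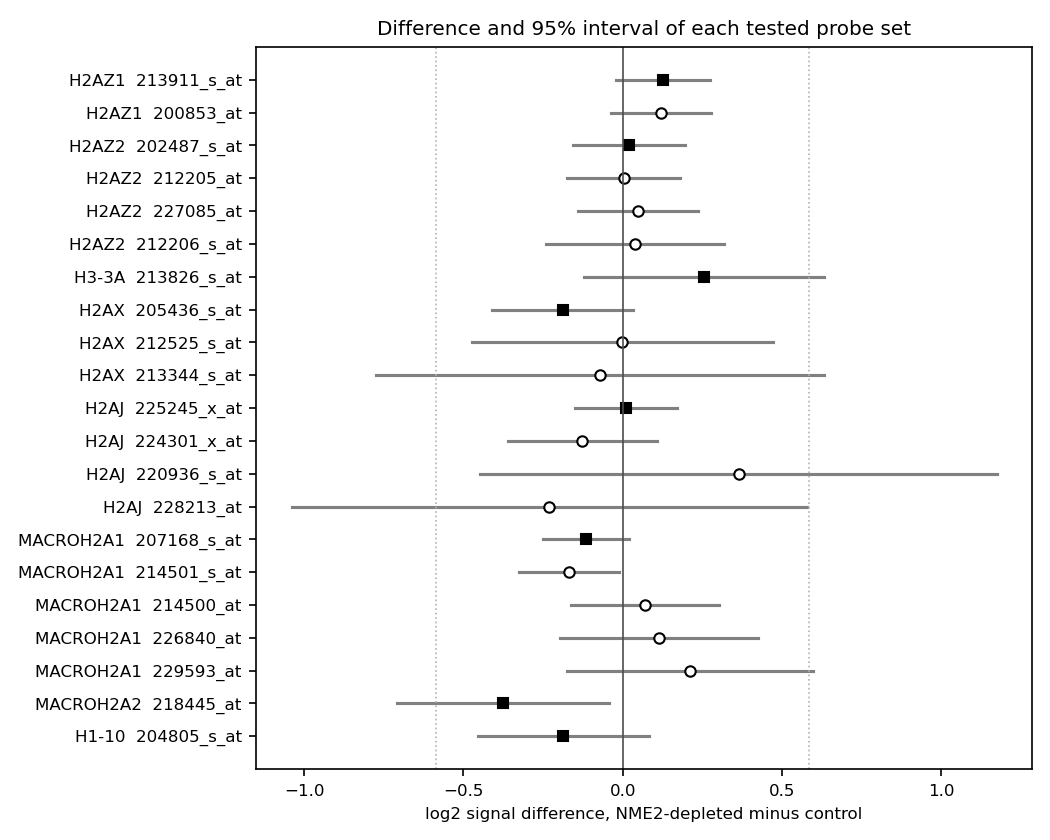
Mean log2 signal difference, NME2-depleted minus control (horizontal axis), of each of the 21 tested histone variant probe sets, with its 95% interval from limma. Filled squares are the brightest probe set of a gene, open circles the others, and dotted lines mark a 1.5-fold change. The interval excludes 0 for MACROH2A1 214501_s_at and MACROH2A2 only, and is widest for the 2 dim H2AJ probe sets.

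The genes whose signals over the 6 arrays were most like those of MACROH2A2 were sought among 12405 others, by the mean absolute difference of log2 signals after each gene was centred on its own mean. PRC1, which bundles microtubules in cell division, came first at 0.0519, followed by MAP7D1 at 0.0530 and METTL1, a tRNA methyltransferase, at 0.0546. For scale, the signals of MACROH2A2 themselves lay 0.190 from their own mean. PRC1 read 2004.8, 1681.6 and 1454 in NME2-depleted cells and 2712.1, 2258.7 and 2026.8 in control cells. Its depleted arrays all lay below its control arrays, as those of MACROH2A2 did, which the choice by likeness over the same arrays favours. None of the 3 passed the threshold, with limma adjusted p-values of 0.174, 0.160 and 0.321. The likeness is a description over 6 arrays and has no test.

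The proteins that place the variants were then followed by list. All 8 genes of the H3.3 pathway were tested, 0 was called and 5 had a lower mean, with a median log2 difference of -0.04. UBN1, a subunit of the HIRA complex, read 501.5, 502.4 and 553.8 in NME2-depleted cells and 480.5, 777 and 749.3 in control cells. Its difference was -0.33 (SE 0.17, limma adjusted p = 0.440). CABIN1, another HIRA partner, had -0.25 (limma adjusted p = 0.457). The H3.3 chaperone DAXX had -0.24 (limma adjusted p = 0.504) and its partner ATRX 0.09 (limma adjusted p = 0.696). All of these groups overlapped.

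Of 18 genes for the exchange of H2A.Z by the SRCAP, TIP60-p400 and INO80 complexes and ANP32E, all were tested and 0 was called. In 10 of the 18 the mean was lower, and the median was -0.05. RUVBL1, an ATPase shared by these complexes, read 1968.7, 1896.7 and 1628.4 in NME2-depleted cells and 2368.1, 2082.8 and 2294.4 in control cells. Its groups did not overlap, and the difference was -0.30 (SE 0.09, limma unadjusted p = 0.00816, adjusted p = 0.202). ACTL6A, an actin-related subunit, had 0.18 (limma adjusted p = 0.461), the remodeller INO80 -0.15 (limma adjusted p = 0.591) and the H2A.Z-binding subunit VPS72 -0.12 (limma adjusted p = 0.594), each with overlapping groups.

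For H2AX, 15 of 16 kinases, phosphatases and readers of its phosphorylated form were tested, 0 was called and 5 were lower in mean, with a median of 0.03. NBN, of the MRN complex that binds DNA ends, read 2968.7, 3278.5 and 3024.7 in NME2-depleted cells and 3046.1, 2700.2 and 2521.1 in control cells. Its difference was 0.17 (SE 0.09, limma adjusted p = 0.440). ATM, the kinase that phosphorylates H2AX, had 0.21 (limma adjusted p = 0.454). The phosphatases EYA2 and EYA3 had 0.30 and 0.27 (limma adjusted p = 0.544 and 0.567). Groups overlapped for all 4 of these genes.

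MacroH2A partners numbered 6, all tested, with 0 called, 3 lower in mean and a median of -0.02. PARG, which removes the poly(ADP-ribose) that the macro domain of macroH2A1.1 binds, read 677, 557.8 and 729.9 in NME2-depleted cells and 737.4, 844.7 and 1008.9 in control cells. These groups did not overlap, and the difference was -0.40 (SE 0.14, limma adjusted p = 0.262). PARP1, which makes poly(ADP-ribose), read 1570.2, 1483.8 and 1290.6 in NME2-depleted cells and 1655.7, 1576.5 and 1702.7 in control cells, also without overlap, and had -0.19 (limma adjusted p = 0.422). The deacetylases HDAC2 and HDAC1 had -0.11, with overlapping groups, and 0.08, higher without overlap (limma adjusted p = 0.557 and 0.668).

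Among 11 genes of linker histone exchange and heterochromatin, all were tested, 0 was called and 6 were lower in mean, with a median of -0.02. CBX5, the heterochromatin protein HP1 alpha, came nearest to the threshold of all genes in these pathways. It read 1972.5, 1841.7 and 1703.3 in NME2-depleted cells and 2259.5, 2910.6 and 2473.6 in control cells. Every depleted array lay below every control array, and the log2 difference was -0.46 (SE 0.10, limma unadjusted p = 0.000789, adjusted p = 0.0858). HMGA2, an architectural protein, had 0.43 (SE 0.24, limma adjusted p = 0.491), with 2429.5, 1442.3 and 1729.1 in NME2-depleted cells and 2077.1, 1089.2 and 1102.3 in control cells. The HP1 relative CBX3 and the DNA-bending protein HMGB1 had 0.10 and -0.09 (limma adjusted p = 0.644 and 0.762).

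The list of general histone chaperones had lower means in 12 of 17 tested genes, with a median of -0.14 and 0 called. The median was -0.07 without NME2-depleted replicate 3 and -0.07 with means over a gene's probe sets. An unadjusted p under 0.05 was found for 5, all lower, where 7.75% of all genes had one with a lower mean. SSRP1, of the FACT complex, read 3345.1, 2894.5 and 3049.5 in NME2-depleted cells and 3892.5, 3557.1 and 3540.5 in control cells, without overlap. Its difference was -0.24 (SE 0.08, limma adjusted p = 0.222). ASF1B, a chaperone of H3 and H4 in dividing cells, read 202, 195.9 and 150.6 in NME2-depleted cells and 242.4, 256.8 and 248 in control cells, a difference of -0.46 (SE 0.18, limma adjusted p = 0.314). NAP1L4 had -0.20 (limma adjusted p = 0.322) and HJURP, the chaperone of the centromeric variant CENPA, -0.33 (limma adjusted p = 0.362). CENPA itself had -0.16 (limma adjusted p = 0.639). It and H2AC25 (-0.41, limma adjusted p = 0.228) were the 2 of 7 other variants that could be tested, and H2AC25 is also counted among the clustered genes that follow.

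Proliferation genes were followed beside the variants, because histone supply is tied to the cell cycle. Lower means were found in 16 of 18, where 49.8% of all genes had one, with a median of -0.19 and 0 called. An unadjusted p under 0.05 was found for 6, all lower, where 7.75% of all genes had one with a lower mean. The median was -0.07 without control replicate 1 and -0.29 without control replicate 3. TK1, a thymidine kinase of S phase, had -0.28 (limma adjusted p = 0.246), the replication helicase subunit MCM3 -0.33 (limma adjusted p = 0.261), the ribonucleotide reductase subunit RRM1 -0.29 (limma adjusted p = 0.274) and the topoisomerase TOP2A -0.42 (limma adjusted p = 0.312). The part of these values in the differences of the variants was not tested.

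On the same arrays 0 of the 8 variant genes was called lower and their median log2 difference was -0.05, while the clustered histone genes gave other values. Of 42 such genes recognised by symbol, a list added after values had been seen, 16 passed the filter. The mean of each of the 16 was lower in NME2-depleted cells, the median was -0.60, and 5 were called lower (H2BC12, H2BC6, H1-2, H2AC6 and H2BC5), where 0.395% of all genes were. H2AZ1 had a difference of 0.13 with a 95% interval of -0.02 to 0.27. H2BC12, which encodes an H2B, read 5876.1, 6766.6 and 6697.8 in NME2-depleted cells and 11068.6, 10134.6 and 10593.9 in control cells, a difference of -0.72 (SE 0.07, limma adjusted p = 0.00619). Between 2 and 4 of the clustered genes were called when any 1 array was left out: 3 without NME2-depleted replicate 1 or 3 or without control replicate 2, and 2 without control replicate 3. The labelling was primed on poly(A)+ RNA, and most clustered histone mRNAs have no poly(A) tail. Whether the lists differ was not tested.

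**Figure D4:**
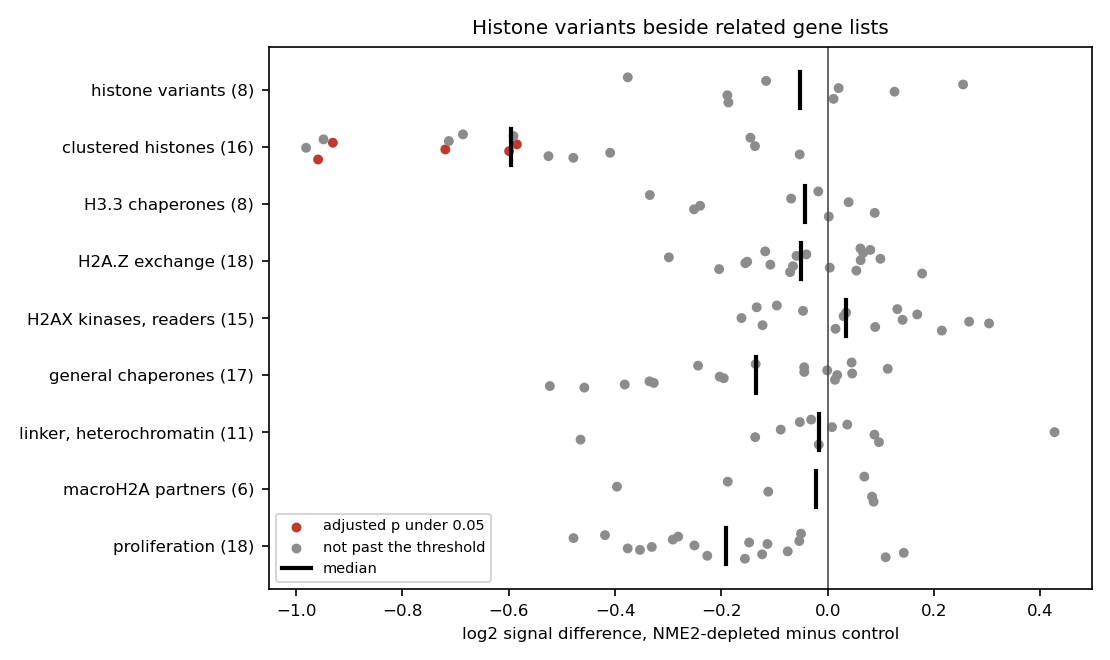
Mean log2 signal difference, NME2-depleted minus control (horizontal axis), of each tested gene by its brightest tested probe set, for the histone variants, the clustered histone genes and 7 lists of partner and proliferation genes, with the number tested in parentheses. Red points passed a limma adjusted p of 0.05, grey points did not, and black bars are medians. The variants have a median of -0.05 and no red point, while all red points lie among the clustered histones, with a median of -0.60. The clustered list was added after values had been seen, and whether the lists differ was not tested.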

How the data were processed

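Total RNA of 3 NME2-depleted and 3 control A549 preparations was hybridised by the authors to 1 HG-U133 Plus 2.0 array each, after poly(A)-primed cDNA synthesis. The deposited values are linear signal intensity, 1 per probe set and array. GCOS 1.1.1 is named in the submitters' processing notes. The authors had scaled all arrays to a common trimmed mean (500.06 to 500.07 with 2% trimmed at each end), which hides a shift shared by all transcripts. Detection calls were not used here. Arrays have no read depth, and their number limits the precision.

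Of 54675 probe sets, 62 controls were left out. Signals under 1 (0.327%) were raised to 1 before log2, without a second normalization. Dim probe sets, whose mean log2 signal lay under the median of all (71.7), were left out. The other 27307 were fitted in R 4.3.3 by limma 3.58.1 (lmFit, eBayes with an intensity trend), with Benjamini-Hochberg adjustment over all of them, two-sided, at 0.05. Exact permutation tests used 20 regroupings. Intervals are 95% intervals of the limma fit. The annotation of 2016 gave 1 symbol for 41091 probe sets, several for 1801 and none for 11721. The brightest tested probe set stood for its gene. The script was tested on simulated data.

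Groups and numbers came from the sample titles. No pair of the 6 arrays was a duplicate. Members and lists were chosen with earlier results of these data known. Named are all members and every probe set of theirs, genes called in a partner list, up to 4 of lowest p in each list, and the 3 genes most like the member of lowest p. Alternatives were other normalizations, an offset of 32, other filters, variance models, array weights, the replicate block, shared probe sets left out, arrays left out, the methods' t-test and means over probe sets. Probe positions are left out because no build was named for the array. H3-3B had no probe set of its own, and some listed genes are not reported here.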

Additional observations from a re-analysis of the deposited data

How the results depend on the processing

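No variant probe set passed an adjusted p of 0.05 under any alternative or with any array left out, and the smallest adjusted p in the 373 refits was 0.131 (MACROH2A2 with the replicate block). The methods' t-test without adjustment called 2, both of MACROH2A1 (207168_s_at and 214501_s_at). Variant probe sets with an unadjusted p under 0.05 numbered 2 of 21 as reported, 7 with the replicate block (16.7% of all) and 0 with no intensity trend. The count over all probe sets was 108 and moved with the model: 30 with no filter, 192 with a filter at the 75th percentile, 61 without probe sets shared between transcripts, and 19 to 70 with an array left out. With no intensity trend it was 0, although 3130 had an unadjusted p under 0.05, and the methods' t-test gave 0 after adjustment and 3065 before. The NME2 difference stayed at -2.78 in those fits with an adjusted p of 0.228 and 0.204.

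The replicate numbers are shared by both groups, but deviations of same-numbered arrays correlated at only 0.114, 0.080 and 0.070, so the numbers were not taken as pairs, though every array correlated best with its own number. Of the 8 variant genes, 3 were lower in the depleted array within all 3 numbers (H2AX, MACROH2A1 and MACROH2A2) and 1 was higher (H2AZ1). The remaining genes had both signs. With the number as a block, 464 probe sets were called (1.7%), among them 0 of the variants. Also called were 1 heterochromatin gene (CBX5, adjusted p = 0.0438) and 1 proliferation gene (TOP2A, 0.0489).

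The median of the variant genes, -0.05, was 0.0036 without shared probe sets, 0.013 with means over probe sets, -0.10 with median centring (all genes -0.05), and -0.08 to -0.01 with an array left out. Signs turned in 19 of the 373 refits, in 7 probe sets, none called. H2AJ 228213_at had the largest difference of these, -0.23. Median centring gave -0.028, -0.045 and -0.0087 for H2AZ2 202487_s_at, 212205_at and 212206_s_at and -0.037 for H2AJ 225245_x_at. H2AX 212525_s_at was 0.00066 with the offset and 0.065 with array weights. With an array left out, ranges were -0.048 to 0.067, -0.038 to 0.05 and -0.061 to 0.12 for these H2AZ2 probe sets, -0.13 to 0.17 and -0.27 to 0.33 for H2AX 212525_s_at and 213344_s_at, and -0.038 to 0.061 and -0.38 to 0.14 for H2AJ 225245_x_at and 228213_at. MACROH2A2 stayed between -0.47 and -0.23. For the clustered genes, a list added after values had been seen, the count was 3 to 7 and the median -0.64 to -0.34 under the alternatives run for them.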
